A study of Mus musculus with 4 samples.

Results

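The 39 genes described here are interferon response genes, a set of members named by symbol, with earlier results of these data known. Of the 39, 37 had counts among the 32285 genes of the count files, and Mx1 and Mx2 were not analysed here. They were followed in lung macrophages sorted from female mice and profiled by droplet single-cell RNA sequencing from the 3′ ends of transcripts. MMTV-HER2 mice, which carry HER2 driven by the MMTV promoter, which is active in mammary epithelium, and form tumours of the mammary gland, were set beside wildtype FVB mice. Each genotype was sampled at 16 weeks (early, the stage of early lesions) and at 32 weeks (late, when the females had palpable tumours by the labels' protocol), giving 4 libraries with 1 library per group. Values for the 4 libraries are given in one order throughout: early wildtype, early HER2, late wildtype, late HER2. Littermates were used, and the number of mice behind a library and the sorting gate are not given in the sources used here. Genotype was taken from the sample titles, because the strain entry names both genotypes for every sample. With 1 library per group, a difference between 2 libraries compares those libraries and has no replicate check, and its interval covers counting error only.

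Interferons are secreted proteins that warn cells of infection. Type I interferons bind the Ifnar1 and Ifnar2 receptor chains, whose kinases Jak1 and Tyk2 phosphorylate Stat2. Stat2 and Irf9 are parts of the factor ISGF3, which binds the interferon-stimulated response element (ISRE) in the promoters of response genes. Interferon gamma acts through Ifngr1 and Ifngr2, and its response genes often carry a gamma-activated site (GAS). Alveolar macrophages (AM) live in the air spaces and clear surfactant, and interstitial macrophages (IM) live in the lung tissue and make complement C1q.

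Promoter sequences were searched for the sites of both pathways. RefSeq (build GRCm38.p6) gave promoter windows, from 250 bases before to 50 bases after a transcription start, for 29 of the members, in 35 windows. The ISRE core, searched on both strands as TTTC, then NN for any bases, then TTTC, was present in 16 of the 35 windows (45.7%), belonging to 15 of the 29 members, and in 3.44% of 32851 windows of all genes. The GAS core, searched as TTCNNNGAA, which reads the same on both strands, was present in 8 of the 35 windows (22.9%) and in 8.30% of all. The 250 bases before the start of 5 members that carry results below are shown on their own strand, with ISRE core matches in capitals. They are Isg15 (chr4:156200819-156201068, minus strand), Ifit1 (chr19:34640639-34640888, plus strand), Rsad2 (chr12:26456453-26456702, minus strand), Bst2 (chr8:71537473-71537722, minus strand) and Irf7 (chr7:141266425-141266674, minus strand).
Isg15: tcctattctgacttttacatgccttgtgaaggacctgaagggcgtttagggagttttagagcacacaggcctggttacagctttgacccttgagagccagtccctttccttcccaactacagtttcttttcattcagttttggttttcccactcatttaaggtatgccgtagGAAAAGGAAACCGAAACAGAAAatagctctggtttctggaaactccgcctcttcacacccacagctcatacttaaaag
Ifit1: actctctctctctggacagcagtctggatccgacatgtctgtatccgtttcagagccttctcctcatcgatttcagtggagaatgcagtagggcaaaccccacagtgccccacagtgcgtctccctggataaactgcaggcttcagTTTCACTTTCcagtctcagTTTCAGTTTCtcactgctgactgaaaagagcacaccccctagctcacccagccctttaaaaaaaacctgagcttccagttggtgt
Rsad2: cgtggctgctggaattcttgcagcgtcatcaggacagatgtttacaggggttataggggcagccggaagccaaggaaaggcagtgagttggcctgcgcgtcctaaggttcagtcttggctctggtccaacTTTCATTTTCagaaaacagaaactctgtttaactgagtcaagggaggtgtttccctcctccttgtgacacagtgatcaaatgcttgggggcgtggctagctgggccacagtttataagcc
Bst2: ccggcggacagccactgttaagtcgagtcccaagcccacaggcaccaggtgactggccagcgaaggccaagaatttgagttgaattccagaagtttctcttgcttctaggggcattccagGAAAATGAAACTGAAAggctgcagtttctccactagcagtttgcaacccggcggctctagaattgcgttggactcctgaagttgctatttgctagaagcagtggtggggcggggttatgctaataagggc
Irf7: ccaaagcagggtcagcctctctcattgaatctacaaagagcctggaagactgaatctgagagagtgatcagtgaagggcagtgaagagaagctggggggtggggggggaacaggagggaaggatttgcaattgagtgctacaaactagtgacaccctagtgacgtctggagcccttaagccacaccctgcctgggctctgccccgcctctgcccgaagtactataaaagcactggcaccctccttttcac
The Isg15 window held 3 overlapping matches, the last beginning at position -66 from the start, and the Bst2 window held 2, the last at -124. The Ifit1 window held 2 separate matches, the nearer at -85, and the Rsad2 window held 1, at -120. The letters of the ISRE core were not in the Irf7 window. A match describes the letters of the window and does not show that a factor was bound there.

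A barcode was taken as a cell with 1000 or more UMIs (unique molecular identifiers, the counted molecules) from 500 or more genes, of which no more than 10% were mitochondrial, which left 22258 cells, 5126 to 6554 per library. AM cells were those with at least 0.4% of UMIs from Chil3, Ear1, Ear2, Fabp1, Lpl and Plet1, and more of these than of C1qa, C1qb and C1qc. IM cells were those with at least 5 C1q UMIs and more C1q than AM-gene UMIs. AM cells numbered 4833, 4413, 4245 and 5702 and IM cells 330, 455, 633 and 661. The 6 AM genes summed to between 16176 and 19271 CPM (UMIs per 1000000 UMIs of that class and library) in AM cells and to between 462 and 801 in IM cells, while the C1q genes summed to between 11037 and 12946 CPM in IM cells. Summed UMIs ranged from 18226829 to 27573921 in AM cells and from 2263388 to 3865769 in IM cells, so that 1 UMI was worth 0.0363 to 0.0549 CPM in AM and 0.259 to 0.442 CPM in IM. Pairs of libraries shared between 1 and 13 cell barcodes. In a sum of UMIs, fewer expressing cells and fewer transcripts per cell cannot be told apart.

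The wildtype early library stood apart among IM cells. The 8 T cell markers summed to 2311, 256, 209 and 83.0 CPM in IM cells of the 4 libraries (45.3, 3.46, 3.43 and 4.5 CPM in AM cells), and the 4 thymocyte markers to 462, 16.4, 21.6 and 2.85 CPM in IM. Of its 330 IM cells, 33 held a UMI of Cst7, which encodes the protease inhibitor cystatin F, against 1, 0 and 1 in the other libraries. A further 133 held at least 3 UMIs of the T cell and thymocyte lists without Cst7, against 29, 35 and 25. Results for IM cells are therefore also given without both kinds of cell, a division that was chosen after the data were seen. That leaves 164, 425, 598 and 635 IM cells, in which the T cell list summed to 54.8 CPM in wildtype early. The wildtype late library stood apart for genes at large: in AM cells 29.3% of all genes were called lower in HER2 late than in it by the limit given below, against 1.77% lower for HER2 early over wildtype early.

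In AM cells the summed level of the members varied little between libraries. Their summed UMIs gave 519, 513, 520 and 536 CPM. Of the 37 members 18 reached 10 CPM in at least 1 library, and 9 averaged under 1 CPM. In IM cells the sum was 2409, 1666, 1336 and 1503 CPM, and 33 members reached 10 CPM. The wildtype early library gave the highest IM level for 30 of the 37 members. With the Cst7 and T-gene cells left out it did so for 5 of them. The share of all genes highest in that library was not counted, so these counts describe the members only. The plot of member levels shows both classes side by side.

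**Figure D1:**
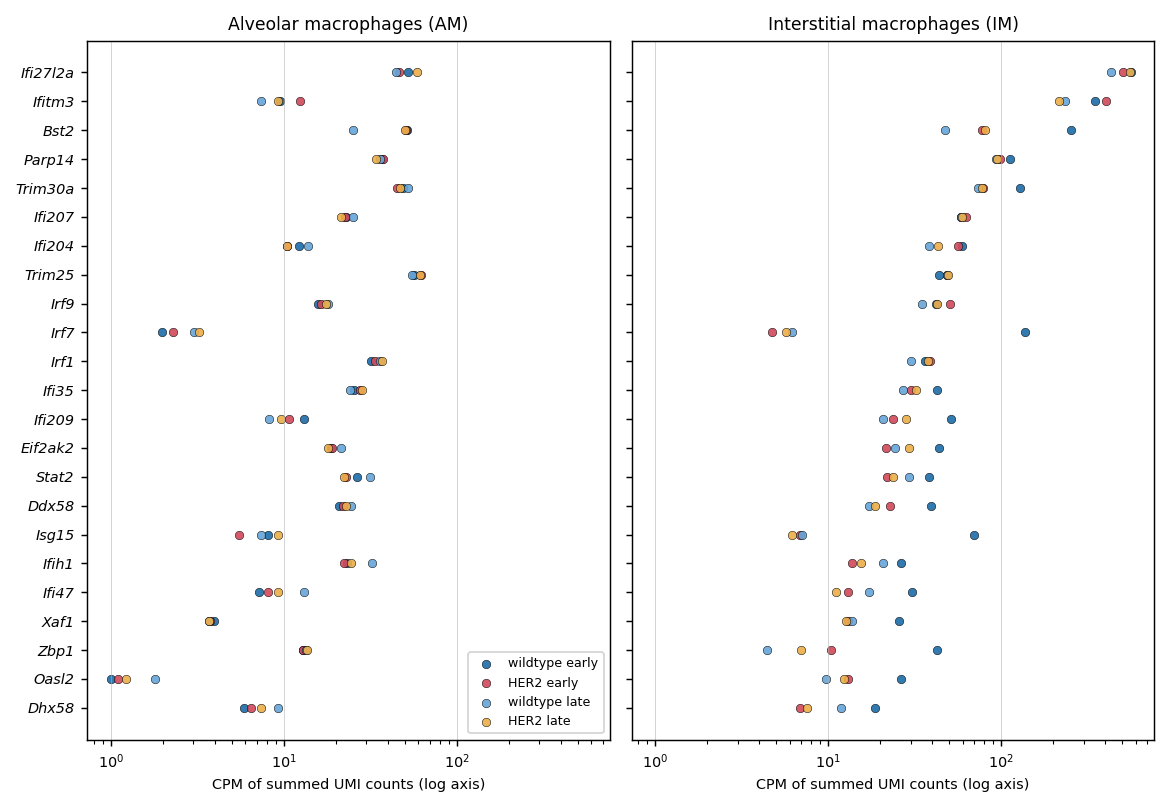
Level of each member that averaged at least 10 CPM in AM or IM cells (vertical axis, ordered by IM level), as CPM of summed UMI counts on a log axis, with 1 point per library. In AM cells the 4 libraries lie close together for most members. In IM cells the dark blue wildtype early points lie to the right of the other 3 for most members, as for Irf7 at 137 CPM against 4.75 to 6.19.

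The difference between the macrophage classes is the one comparison with replication, since each library holds both. It was tested with edgeR's quasi-likelihood test on the summed counts with the library as a block, and p-values were adjusted by Benjamini-Hochberg over 11897 genes. The edgeR differences use its TMM scaling, while the CPM values use the UMI total, so a difference need not equal the ratio of CPM. Of the 30 members tested, 18 were higher and 2 lower in IM, and the median log2 difference over members was 1.11 against 0.01 over all genes tested. Over all genes 32.0% were called higher in IM and 30.8% lower. With the Cst7 and T-gene cells left out 17 of 30 members were higher and 5 lower, with 32.4% and 32.1% of all genes. The classes were set by 9 marker genes, none of them a member.

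Among the transcription factors, Irf9, the DNA-binding part of ISGF3, stood at 15.7, 16.4, 18.0 and 17.6 CPM in AM and at 41.9, 50.9, 34.9 and 42.4 CPM in IM. The classes did not overlap, and the log2 difference was 1.08 ± 0.12 (SE, edgeR, 4 libraries), with an adjusted p of 3.29e-05. Irf7, the factor that amplifies type I interferon production, stood at 1.97, 2.30, 3.01 and 3.23 CPM in AM and at 137, 4.75, 6.19 and 5.69 CPM in IM. IM was above AM in all 4 libraries, but 1 library carried most of the difference. The log2 value was 2.46 ± 0.88 (edgeR adjusted p = 0.0348), 1.47 ± 0.44 without the Cst7 and T-gene cells and 0.72 without the wildtype early library, and DESeq2 did not call it (adjusted p = 0.165). Without the wildtype early library the edgeR adjusted p of Irf7 was 0.0290. Stat2, a subunit of ISGF3, had an edgeR adjusted p of 0.391 and Irf1, a factor induced by interferon gamma, one of 0.110. Irf1 was called lower in IM at a log2 difference of -0.36 once the Cst7 and T-gene cells were left out (edgeR adjusted p = 0.0211). By CPM it stood at 17.3, 36.0, 28.7 and 37.7 in those IM cells and at 32.0, 33.5, 35.8 and 37.0 in AM. By CPM it was thus lower in IM in both wildtype libraries and slightly higher in both HER2 libraries.

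Of the membrane restriction factors Ifitm3 differed far more between the classes than Bst2. Ifitm3, which blocks the entry of enveloped viruses, stood at 9.49, 12.5, 7.37 and 9.32 CPM in AM and at 351, 402, 235 and 216 CPM in IM. The log2 difference of 4.69 ± 0.12 was a 25.7-fold higher level in IM (edgeR adjusted p = 8.68e-09), the largest of the 30 members tested. The AM level lay far below the 63.0 to 228 CPM of Ifitm3 in the free RNA of each library, measured in barcodes of 10 to 100 UMIs. Free RNA was estimated at 1.53 to 3.17% of AM UMIs from airway and haemoglobin genes. Bst2, also called tetherin, which holds budding virions at the cell surface, stood at 51.8, 51.2, 25.04 and 50.01 CPM in AM and at 253, 77.7, 47.3 and 80.4 CPM in IM. The difference of 0.91 ± 0.24 (edgeR adjusted p = 0.00802) was 0.54 ± 0.09 without the Cst7 and T-gene cells and missed the threshold without the library block (adjusted p = 0.0504).

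All 5 oligoadenylate synthetases, which sense double-stranded RNA and switch on RNase L or, for the Oasl proteins, modulate sensing, were scarce in AM, with a summed level of 5.29 to 7.13 CPM. In IM they summed to 74.2, 31.5, 26.5 and 29.7 CPM. Oas2 stood at 6.47 to 12.1 CPM in IM and at 0.185 to 0.580 CPM in AM, a log2 difference of 4.47 ± 0.35 (edgeR adjusted p = 3.48e-06). Oasl2 (3.27 ± 0.33) and Oas1a (1.17 ± 0.20) were higher in IM too, while Oas3 and Oasl1 were too low to be tested. The Isg15 system split. Usp18, the protease that removes Isg15 and dampens receptor signalling, stood at 0.110 to 0.435 CPM in AM and 3.09 to 21.0 CPM in IM, a log2 difference of 4.49 ± 0.48 (edgeR adjusted p = 2.80e-05). Isg15 itself, a ubiquitin-like modifier, stood at 8.09, 5.49, 7.37 and 9.32 CPM in AM and at 69.3, 6.90, 7.07 and 6.21 CPM in IM, and did not pass (edgeR adjusted p = 0.260). Of the Ifit proteins, which bind foreign RNA, Ifit2 passed at 1.77 ± 0.63 (edgeR adjusted p = 0.0335) but stood at 0.26 ± 0.49 without the Cst7 and T-gene cells, and Ifit1 did not pass (adjusted p = 0.481). Ifit3 and Ifit3b, and the enzymes Rsad2 and Cmpk2, which act on nucleotides, were too low to be tested.

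The sensors of nucleic acids did not all differ in the same direction. The 3 members that belong to the Ifi200 family of DNA-binding proteins were higher in IM. Ifi204 stood at 10.4 to 13.8 CPM in AM and 38.4 to 59.7 in IM (log2 difference 1.82 ± 0.14), Ifi207 at 21.4 to 25.3 and 58.3 to 62.6 CPM (1.14 ± 0.09) and Ifi209 at 8.21 to 13.1 and 20.8 to 51.6 CPM (1.29 ± 0.14). None of these ranges overlapped. Of genes that are no members, the DNA sensor Aim2 was lower in IM (log2 -0.44 ± 0.13, edgeR adjusted p = 0.0172). Ifi203 and Ifi211 were higher, at log2 2.39 and 3.20. Of the cytosolic RNA sensors only Ifih1 passed in all IM cells. Ifih1, which encodes MDA5, stood at 23.4, 22.4, 32.3 and 24.4 CPM in AM and at 26.2, 13.8, 20.8 and 15.5 CPM in IM, a log2 difference of -0.68 ± 0.15 (edgeR adjusted p = 0.00263). It was lower in IM in 3 of 4 libraries, wildtype early being the exception. Ddx58, which encodes RIG-I, and Dhx58, which encodes LGP2, did not pass in all IM cells (edgeR adjusted p = 0.467 and 0.295). Ddx58 was called lower in IM without the Cst7 and T-gene cells (log2 -0.47 ± 0.13), as was Zbp1, a sensor of Z-form nucleic acid (-1.59 ± 0.21, against -0.24 ± 0.43 in all IM cells). The kinase Eif2ak2 (PKR), which stops translation on double-stranded RNA, had an edgeR adjusted p of 0.0786.

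Of the TRIM proteins, Trim25, the ubiquitin ligase that acts on RIG-I, stood at 56.5, 62.2, 55.0 and 61.8 CPM in AM and 43.9, 48.7, 48.6 and 49.4 CPM in IM, and was lower in IM in all 4 libraries (log2 -0.55 ± 0.09, edgeR adjusted p = 0.000434). Trim30a was higher in IM, at 73.3 to 129 against 45.2 to 52.4 CPM (0.62 ± 0.12). Among the other interferon-induced members, Ifi27l2a stood at 52.7, 46.1, 44.3 and 59.3 CPM in AM and at 561, 507, 433 and 553 CPM in IM, 8.56-fold higher with an edgeR adjusted p of 9.60e-09. Parp14, an ADP-ribosyltransferase, stood at 34.3 to 37.3 and 93.2 to 112 CPM (log2 1.22 ± 0.08). Rtp4, Xaf1 and Isg20, an exonuclease, were higher in IM as well, at log2 2.65, 1.81 and 1.81. Ifi35 and the p47 GTPase Ifi47 did not pass (edgeR adjusted p = 0.661 and 0.0641). Ifi44 was too low to be tested. Isg15, Irf9, Oas1a, Oas3, Ddx58, Xaf1, Ifi209 and Trim30a share a stretch near the end of a transcript with another gene or gene model. The stretch was at least 90 bases, at 95% identity or more, within the last 300. Irf9, Ifi47, Rtp4 and Parp14 each overlap another gene or gene model on the same strand. The counts of all these members may be split or shared.

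**Figure D2:**
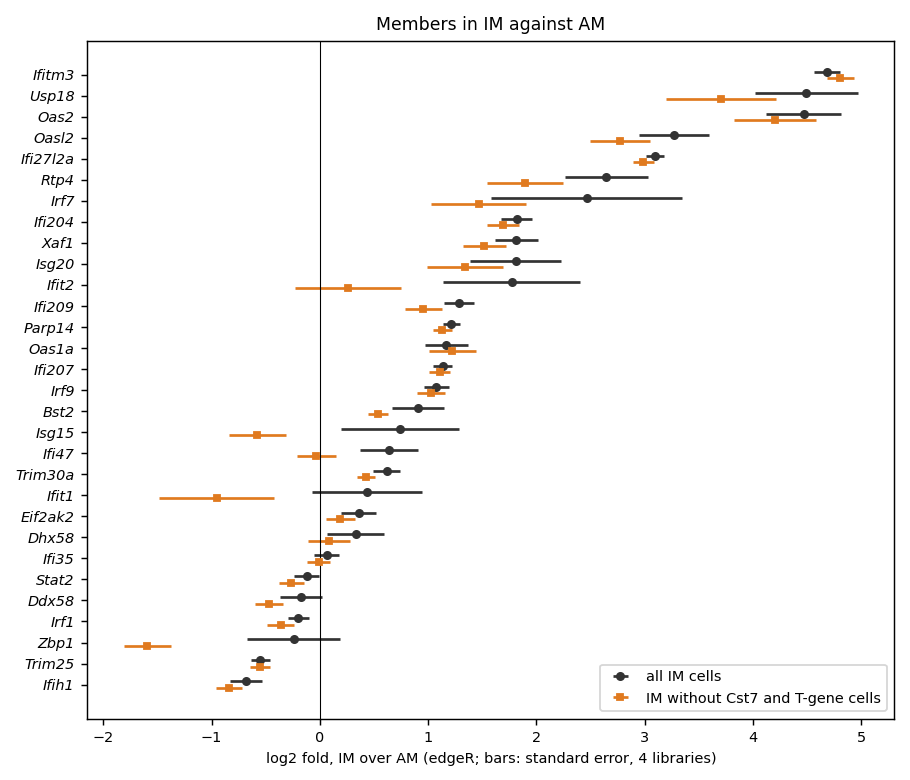
Log2 difference of each tested member in IM over AM (horizontal axis) from edgeR with its standard error over 4 libraries, for all IM cells (black circles) and without the Cst7 and T-gene cells (orange squares). Ifitm3, Oas2 and Ifi27l2a keep their place with either set of cells, while Irf7, Ifit2, Isg15, Ifit1 and Zbp1 lie further left without those cells.

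In AM cells 1 member was called between HER2 and wildtype at 16 weeks, and the calls at 32 weeks changed with the scaling. A member was called higher or lower where its CPM was at least 25% above the other library's, or the other's at least 25% above its own, and the exact 95% counting interval of the ratio lay beside 1, among members with at least 10 CPM in either library. At 16 weeks 1 of 17 members was higher in HER2 and none was lower, against 0.709% and 1.77% of all genes. At 32 weeks 2 of 16 were higher and 4 lower, against 4.87% and 29.3%. With median-ratio scaling in place of the UMI total the late counts became 5 of 17 higher and 0 lower, against 12.4% and 6.50% of all genes under that scaling, since the median gene in AM cells had a log2 ratio of -0.21 in HER2 late over wildtype late. The 4 lower by the UMI total, none of them called under that scaling, were Stat2 at 22.4 against 31.7 CPM (0.706-fold), Ifih1 at 24.4 against 32.3 (0.755-fold), Ifi47 at 9.28 against 13.2 (0.705-fold) and Ifi204 at 10.4 against 13.8 (0.758-fold). The median log2 ratio over the members was -0.08.

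The one early call, Ifitm3 at 12.5 CPM in HER2 against 9.49 (1.31-fold, 95% interval 1.08 to 1.59), is a low level beside the 173 and 228 CPM of Ifitm3 in the free RNA of those libraries. With free RNA subtracted its log2 ratio was 0.65. No member was then called higher, but Ifitm3 lay under 10 CPM in both libraries and could not be called. In the authors' deposited averages over AM cells its log2 ratio was 0.04. Those averages of Ifitm3 stood at 0.0386, 0.0397, 0.0135 and 0.0396 in the 4 libraries, where the CPM were 9.49, 12.5, 7.37 and 9.32. Wildtype late was lowest in both, but by far more in the authors' averages. Bst2 was 2.00-fold higher in HER2 late than in wildtype late (95% interval 1.81 to 2.21). Its levels of 51.8, 51.2, 25.04 and 50.01 CPM show that the wildtype late library was the low one, at 0.484-fold of wildtype early, and that HER2 late was level with both early libraries. The authors' deposited averages for Bst2, 0.437, 0.443, 0.226 and 0.424 on the authors' scale, also put wildtype late lowest. Ifi27l2a was 1.34-fold higher in HER2 late than in wildtype late (1.23 to 1.45) and 1.29-fold higher than in HER2 early (1.18 to 1.40).

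Read across both stages, 2 of 18 members had both HER2 libraries above both wildtype libraries in AM cells, against 3.41% of all genes, and 4 had both below, against 29.9%. The 2 above were Ifi35, at 25.4, 27.5, 24.3 and 28.5 CPM, and Trim25, with the values given before. Both differences were small, at 1.08-fold early and 1.18-fold late for Ifi35. The 4 below were Stat2, Ifi204, Ifi207 and Trim30a.

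Between ages, AM cells of wildtype mice had 2 of 17 members higher and 2 lower at 32 weeks, against 27.3% and 7.96% of all genes. The higher ones were Ifi47 (13.2 against 7.22 CPM, 1.82-fold) and Ifih1 (1.38-fold), and the lower ones Bst2 and Ifi209 (8.21 against 13.1 CPM, 0.625-fold). In HER2 mice Ifi27l2a was higher and Ifitm3 lower at 32 weeks, 1 of 17 each, against 2.38% and 1.88%. With free RNA subtracted the log2 ratio of Ifitm3 was 0.33, the opposite direction.

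In IM cells at 16 weeks most members were lower in HER2 mice. Of 33 members tested none was higher and 23 were lower in HER2 early than in wildtype early, against 6.64% and 17.3% of all genes. The filter takes 10 CPM in either library. Members under 10 CPM in HER2 early, among them Isg15, Irf7, Ifi44 and Oasl1, thus entered through wildtype early and could not be called higher. The median log2 ratio over the members was -1.02, against -0.11 over all genes. Irf7 stood at 4.75 CPM in HER2 early and 137 in wildtype early (0.0345-fold, 95% interval 0.0171 to 0.0626). Isg15 stood at 6.90 against 69.3 CPM (0.0995-fold) and Bst2 at 77.7 against 253 CPM (0.307-fold). Ifi44 and Oasl1 had no UMI in HER2 early and 17.7 and 10.5 CPM in wildtype early, at least 13.7-fold and 8.10-fold lower against a floor of 3 counts per library. HER2 early held Ifit2, Ifit3 and Oas3 at 0.863, 0.863 and 0.431 CPM, where wildtype early held them at 23.4, 13.3 and 15.7 CPM. Among the 10 members not called, the ratio was 1.07-fold for Irf1 (0.790 to 1.45), 1.21-fold for Irf9 (0.925 to 1.60) and 0.878-fold for Parp14 (0.733 to 1.05).

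Wildtype early was the high library. In IM cells of wildtype mice 23 of 32 members were lower at 32 weeks than at 16 weeks and none was higher, against 19.9% and 15.1% of all genes. Both comparisons use the same wildtype early library. In both, members under 10 CPM in the other library entered through wildtype early and could not be called higher. HER2 early and HER2 late differed in 2 of 21 members, Ifi204 and Ifitm3, both lower late, against 8.32% of all genes, and none was higher, against 3.73%.

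The excess in wildtype early lay in few cells. The core list, 20 genes of strong interferon response of which 18 had counts (Isg15, the 4 Ifit genes, Rsad2, Irf7, the 5 Oas and Oasl genes, Ifi44, Cmpk2, Usp18, Rtp4, Xaf1 and Zbp1), summed to 459, 86.3, 73.3 and 80.4 CPM in all IM cells. In wildtype early, the 33 cells with a Cst7 UMI held 77.4% of the core UMIs and 16.8% of the IM UMIs, at 2120 CPM. The 133 T-gene cells held 16.9% at 178 CPM, and the remaining 164 cells 5.71% at 66.02 CPM. The T-gene cells of HER2 early, wildtype late and HER2 late stood at 177, 82.5 and 82.4 CPM, from 39, 14 and 16 core UMIs. The remaining IM cells of the other 3 libraries stood at 77.3, 72.6 and 80.5 CPM. Irf7 gave 28 of the 65 core UMIs of the remaining wildtype early cells. Without Irf7 the core list stood at 37.6, 74.0, 65.9 and 74.8 CPM, and wildtype early was the lowest.

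**Figure D3:**
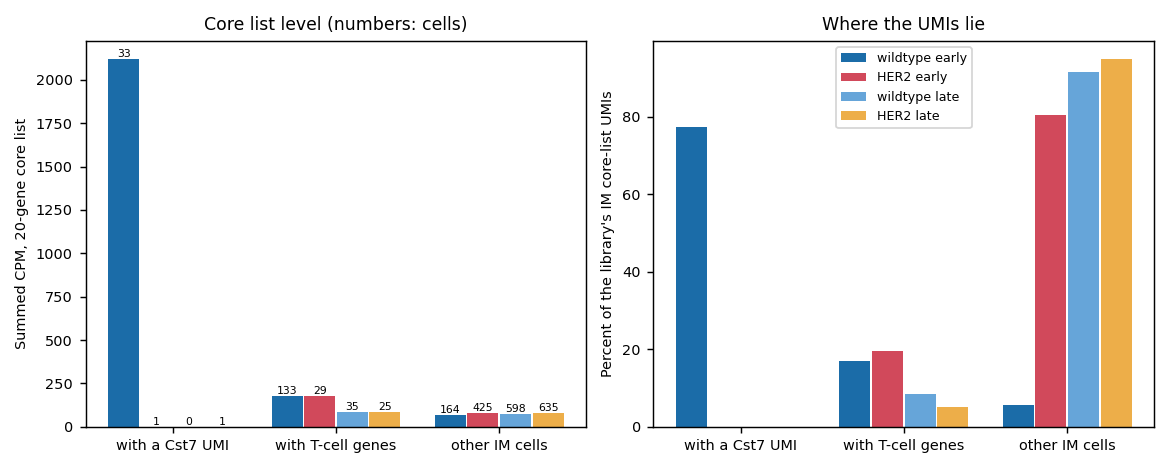
Summed CPM of the core list (left, bars from 0, with the number of cells above each bar) and percent of the library's core-list UMIs (right) in IM cells with a Cst7 UMI, with T-cell genes, and in the others, by library. Only the wildtype early bar of the Cst7 cells, at 2120 CPM from 33 cells, rises far above the rest. The other IM cells lie between 66.02 and 80.5 CPM in all 4 libraries.

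All 37 members were at a higher level in these 33 cells than in the remaining IM cells of their library. Of all genes with a UMI in either set 44.0% were higher in them. The division by Cst7 was chosen after the data were seen, and these cells hold most of the core-list UMIs. The count is therefore a description and not a test, and the genes set beside the members were not matched in level. The median ratio was 6.17 over the members seen in both, against 1.01 over all genes seen in both. It ranged down to Trim25 at 40.9 against 39.6 CPM, and 8 members had no UMI in the remaining cells. Irf7 stood at 697 against 28.4 CPM, Isg15 at 288 against 2.03, Bst2 at 1079 against 96.5 and Ifi27l2a at 1653 against 381 CPM.

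Of genes that are no members, Vcam1, an adhesion molecule, stood at 683 against 97.5 CPM, Acp5, the tartrate-resistant acid phosphatase, at 884 against 101 CPM, and Cd4 at 658 against 30.5 CPM. The T cell list, which includes Cd4, summed to 1290.5 CPM in them, the thymocyte list to 151 CPM and the plasmacytoid dendritic cell list to 151 CPM, against 54.8, 5.08 and 25.4 CPM in the remaining cells. Their median depth was 11939 UMIs against 5056. The part of these markers and of the depth in the result was not tested.

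Without the Cst7 and T-gene cells the contrast at 16 weeks took another form. Of 22 members tested 5 were higher in HER2 early and 1 was lower, against 3.84% and 4.56% of all genes. The median log2 ratio over the members was 0.29, against -0.01 over all genes. Irf1 stood at 36.0 CPM in HER2 early against 17.3 in wildtype early (2.09-fold, 95% interval 1.22 to 3.77) and Irf9 at 51.4 against 27.4 (1.87-fold, 1.22 to 2.97). Ifi204 at 54.8 against 33.5 (1.63-fold), Parp14 at 97.5 against 73.1 (1.33-fold) and Ifi27l2a at 490 against 381 CPM (1.29-fold) were the other 3. The one member called lower in HER2 early was Irf7, at 3.36 against 28.4 CPM (0.118-fold, 0.0436 to 0.277), from 28 UMIs in the wildtype early cells. It stood at 6.69 and 5.73 CPM in the remaining IM cells of the late libraries. Several other members are rare in these cells, Isg15 and Ifit2 with 2 and 0 UMIs in wildtype early, so that their ratios rest on few molecules.

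**Figure D4:**
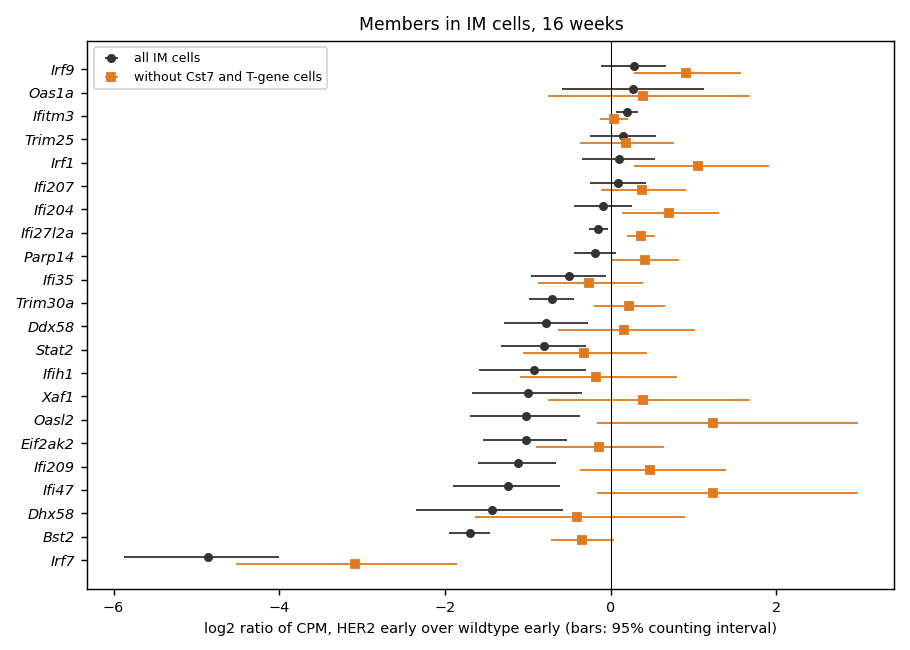
Log2 ratio of CPM, HER2 early over wildtype early, for members tested with both sets of IM cells, with 95% counting intervals (1 library per group, counting error only). Black circles are all IM cells and orange squares leave out the Cst7 and T-gene cells. Irf7 lies far to the left with both sets. Without those cells Bst2 stays on the left but nearer to 0, while Ifi209 and Trim30a cross from the left to the right of 0.

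At 32 weeks few members were called in IM cells. Ifi27l2a, at 553 CPM in HER2 against 433 in wildtype (1.28-fold, 95% interval 1.18 to 1.38), and Bst2, at 80.4 against 47.3 (1.70-fold, 1.36 to 2.14), were higher in HER2 late. None of 20 was lower, against 5.98% of all genes higher and 18.7% lower. With those cells left out Bst2 stood at 79.5 against 47.8 CPM (1.66-fold) and was the only one of 21 called, against 5.95% and 17.3%. As in AM cells, wildtype late held the lowest Bst2 level of the 4 libraries.

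Ifitm3 in IM cells divided the libraries by age. It stood at 351 and 402 CPM in the early libraries and at 235 and 216 CPM in the late ones, with no overlap between the ages. The late over early ratio was 0.668-fold in wildtype (95% interval 0.599 to 0.745) and 0.537-fold in HER2 (0.488 to 0.590). In the remaining IM cells the levels were 407, 419, 246 and 220 CPM, and the ratios 0.604-fold and 0.524-fold. Ifitm3 in the free RNA followed the same order of ages, at 173, 228, 63.0 and 85.2 CPM, and with free RNA subtracted the log2 ratios were -0.57 in wildtype and -0.90 in HER2. Other members called lower at 32 weeks with these cells left out were Irf7 and Bst2 in wildtype, and Ifi47 was higher there. That is 1 of 21 higher and 3 lower, against 13.5% and 9.32% of all genes. In HER2 mice Ifitm3 was the only one of 20 called, lower, against 7.26% of all genes lower and 4.15% higher.

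Across both stages 4 of 33 members in IM cells had both HER2 libraries above both wildtype libraries (Irf1, Irf9, Ifi207 and Trim25), against 8.21% of all genes, and 9 had both below, against 27.8%. In the remaining IM cells 8 of 23 lay above, against 9.82%, and 4 below, against 19.8%. The 8 were Irf1, Irf9, Oasl2, Ifi27l2a, Ifi204, Ifi207, Ifi209 and Trim30a. Irf9 stood at 27.4, 51.4, 35.4 and 43.4 CPM there and Irf1 at 17.3, 36.0, 28.7 and 37.7 CPM. At 32 weeks neither was called, with ratios of 1.31 (95% interval 0.964 to 1.81) for Irf1 and 1.23 (0.927 to 1.64) for Irf9.

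A strong response in single AM cells was rare in every library. Over all AM cells the core list summed to 38.5, 35.6, 40.4 and 43.6 CPM. HER2 late was 1.23-fold above HER2 early (95% counting interval 1.11 to 1.35), and the intervals of the other comparisons held 1. After each cell was thinned to 2000 UMIs, 94.3 to 94.7% of AM cells had no core-list UMI. Cells with at least 5 core-list UMIs numbered 6 of 4476, 1 of 3923, 7 of 4074 and 10 of 5362. These are shares of 0.134% (95% Clopper-Pearson interval 0.0492 to 0.292), 0.0255% (0.000645 to 0.142), 0.172% (0.0691 to 0.354) and 0.186% (0.0895 to 0.343), and the intervals of all 4 overlap. These few cells held 14.1, 5.60, 17.5 and 26.0% of the core-list UMIs of AM cells. Without thinning the shares were 0.352, 0.204, 0.448 and 0.438%.

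**Figure D5:**
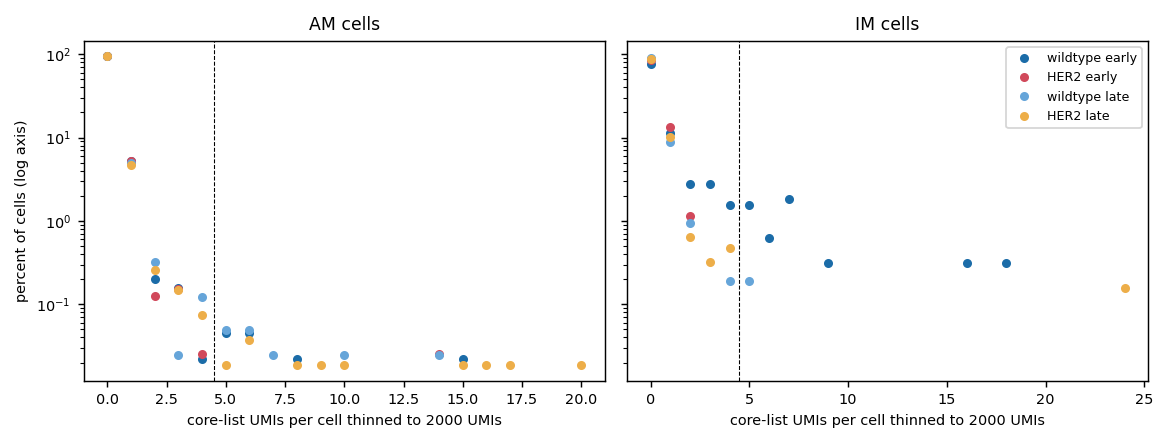
Percent of cells (log axis) by number of core-list UMIs per cell after thinning to 2000 UMIs, for AM (left) and IM (right), with 1 colour per library and no point where no cell was counted. The dashed line marks the limit of 5 UMIs. In AM the tail reaches 15, 14, 14 and 20 UMIs in the 4 libraries, and in IM the wildtype early library holds most of the cells right of the line.

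The 24 AM cells past the limit were high in members that had not been used to pick them. Ifih1 stood at 530, 447, 514 and 480 CPM in them and at 22.8, 22.2, 31.6 and 23.7 CPM in the other AM cells. Trim30a stood at 265, 1454, 397 and 442 CPM against 45.4 to 52.0. Of the 19 members outside the core list 15 were above the other AM cells in all 4 libraries, against 2.36% of 13840 genes outside the list. For 8 members every interval lay above 1 (Ddx58, Eif2ak2, Ifi207, Ifi209, Ifi47, Ifih1, Stat2 and Trim30a), against 0.260% of those genes. A single cell of 8940 UMIs gives the values of HER2 early. A gene with no UMI in that cell could not be counted as above in all 4 libraries. The 13840 genes were not matched to the members in level. Ifi27l2a reached 692 CPM in the 10 cells of HER2 late against 58.9 in its other AM cells. The rule that set the AM class fixes that these cells are high in the 6 AM genes and low in C1q. They held no UMI of the 8 T cell markers. Their median depth was 4836, 8940, 7041 and 5208 UMIs against 4522, 3991, 4871 and 4538 in the other AM cells, and the part of depth in the result was not tested.

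Across single AM cells the members outside the core list followed it weakly. Pearson's r with the core-list score was taken within each library over genes seen in all 4, with the gene itself left out of the score. The lowest r over libraries was 0.080 for Ifih1, 0.069 for Bst2, 0.059 for Ifitm3 and 0.053 for Ifi27l2a, and it was below 0 for Isg20 (-0.023), Irf1 (-0.006) and Ifi35 (-0.004). The median of that lowest r over 6820 genes was -0.002. Among genes that are no members, Ly6e (0.084) and B2m (0.062) came first. The points share libraries and depth, and in counts this sparse such values only describe the data.

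Among IM cells 16 of 323 in wildtype early passed the same limit (4.95%), against 0 of 433, 1 of 532 and 1 of 630 in the other libraries. No cell of 433 leaves an upper 95% bound of 0.848%. Without thinning the shares were 13.3, 0.879, 0.790 and 0.908%. Among the remaining IM cells the thinned wildtype early share was 0.633%.

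Cells in neither macrophage class also held members. Ifitm3 stood at 1979, 2120, 1947 and 2414 CPM in the cells with endothelial markers, of which there were 52, 89, 81 and 68. Bst2 stood at 187, 248, 159 and 341 CPM there, again lowest in wildtype late. Ifi27l2a was scarce in them at 35.3, 56.0, 16.6 and 54.6 CPM, and stood at 634, 541, 438 and 173 CPM in cells with T cell markers. In wildtype early the cells with T cell markers numbered 140, against 20 to 47 in the other libraries, and Isg15 stood at 105 CPM in them.

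The genes around the members were read from 5 lists. Of the 10 interferon genes none reached 10 CPM in AM or IM cells. Ifnk, an interferon of type I, stood at 2.42, 2.59, 0.884 and 3.62 CPM in IM cells, while Ifnb1 had no UMI in any class. Of the 10 receptor and Jak-Stat genes tested, 5 were higher in IM than in AM and 2 lower (edgeR). Over all genes 32.0% were called higher in IM and 30.8% lower. Ifnar1 stood at 14.0 to 17.0 CPM in AM and 106 to 138 in IM, a log2 difference of 2.67 ± 0.09 (edgeR adjusted p = 1.63e-08), and Ifngr1 at 83.9 to 89.8 and 369 to 429 CPM (1.97 ± 0.09). Of 6 negative regulators 3 were higher in IM and 2 lower, against the same shares of all genes. Socs1, the feedback inhibitor of Jak kinases, stood at 21.0, 4.31, 5.30 and 2.59 CPM in IM, and Socs3 at 58.1, 47.03, 40.2 and 43.5 CPM.

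Of 16 sensors, adaptors and factors upstream 7 were higher and 6 lower in IM (edgeR), against 32.0% and 30.8% of all genes. Tlr7, the endosomal sensor of single-stranded RNA, was lower in IM at log2 -1.39 ± 0.11 and Mavs, the adaptor of RIG-I and MDA5, at -1.31 ± 0.10, while Irf5 was higher at 1.86 ± 0.14. Of 46 other interferon-induced genes 25 were higher and 6 lower in IM, against the same shares. At 16 weeks in IM cells 20 of 41 of these were lower in HER2 and 2 higher, against 17.3% and 6.64% of all genes. As with the members, a gene under 10 CPM in HER2 early could not be called higher. Cxcl9, a chemokine induced by interferon gamma, stood at 98.0, 0.863, 0.884 and 2.07 CPM, and Lgals3bp at 200, 61.7, 58.8 and 46.6 CPM. In the remaining IM cells the count was 2 of 35 lower and 2 higher, against 4.56% and 3.84% of all genes. Of the Gbp genes, GTPases that act on vacuoles of pathogens, Gbp3 stood at 61.7, 54.4, 50.8 and 91.8 CPM in IM, and HER2 late was the high library. In AM cells at 16 weeks none of 25 of these interferon-induced genes was called, against 0.709% of all genes higher and 1.77% lower. At 32 weeks 3 of 26 were higher in HER2 and 10 lower, against 4.87% and 29.3%.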

How the data were processed

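UMI counts of single lung macrophages were measured in 4 libraries. The deposited counts are whole UMIs per gene and barcode, made on build mm10 with Cell Ranger, as version 5.0.1 per the submitters' processing notes and version 4 per the file headers. The authors also deposited averages over AM cells (a normalized signal, with no account of its making in the labels), used only beside the counts. Classes were set by marker sums, doublets were left in and no doublet caller was run. UMIs were summed per library and class, and free RNA was estimated from airway and haemoglobin genes, and ratios of CPM carry exact conditional binomial 95% intervals. IM was set against AM with edgeR 4.0.16 (quasi-likelihood, TMM, filterByExpr, library as block, adjusted p under 0.05) and pydeseq2 0.5.4, in R 4.3.3 and Python 3.11.15. The pairing comes from the library, which gives both classes. The code was tested on simulated data. Nothing in the labels says how many mice a library holds.

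Members and lists were chosen with earlier results of these data known. Levels are given for members with a mean of at least 50 CPM or among the 5 largest ratios of a comparison. Pathway genes named, and Vcam1, Acp5 and Cd4, were chosen after their values were seen. Transcript ends (the last 300 bases) were compared with BLAST 2.17.0 to find near-identical genes.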

Additional observations from a re-analysis of the deposited data

Results flagged for a closer look

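The HER2 over wildtype ratio of Bst2 in IM cells pointed in opposite directions at the 2 stages, at log2 -1.70 at 16 weeks and 0.77 at 32 weeks. The difference between the stages was not tested, as each group is 1 library. Without the Cst7 and T-gene cells the values were -0.35 and 0.73.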

How the results depend on the processing

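Limits come first. Each group is 1 library, so HER2 and age ratios have no replicate check. Most core-list members lie under 10 CPM in AM cells. Some rest on few UMIs there, as Ifi44 with 2, 0, 2 and 3 in the 4 libraries, so that 1 UMI changes their level much. Leaving out the Cst7 and T-gene cells was chosen after seeing the data. Where a value below moved, the cause was not tested.

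In AM cells the count higher in HER2 early (1) was 0 with every cell weighing the same and with a 1.5-fold limit. It was 0 too with free RNA subtracted, where Ifitm3 lay under 10 CPM in both libraries and could not be called. With no filter on low counts it was 2. The count lower (0) was 1 with free RNA subtracted and 2 with no filter. For HER2 late over wildtype late, the count higher (2) was 1 with equal cell weights, 1 with a 1.5-fold limit and 5 with median-ratio scaling or no filter. The count lower (4) was 0 with median-ratio scaling or a 1.5-fold limit. For wildtype late over early, the count higher (2) was 1 with median-ratio scaling or a 1.5-fold limit and 6 with no filter. For HER2 late over early, the count higher (1) was 0 with equal weights or a 1.5-fold limit and 6 with no filter. The count lower (1) was 0 with a mitochondrial limit of 20%, equal weights, free RNA subtracted or a 1.5-fold limit. With no filter it was 2. With free RNA subtracted Ifitm3 reversed to 0.33, but lay under 10 CPM in both HER2 libraries and could not be called. Members with both HER2 libraries above both wildtype libraries (2) numbered 7 with median-ratio scaling and 5 with no filter, and those below (4) numbered 2 with median-ratio scaling.

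In IM cells the count higher in HER2 early (0) was 1 with equal weights. Without the Cst7 and T-gene cells it was 5, and the count lower (23) was 1. The log2 ratios that then reversed were Isg15 1.92, Isg20 0.24, Oasl2 1.24, Ifi47 1.24, Ddx58 0.16, Usp18 3.09, Rtp4 2.24, Xaf1 0.39, Zbp1 1.62, Ifi209 0.47 and Trim30a 0.22. For wildtype late over early the same cells left out gave 1 higher (0) and 3 lower (23), with Isg15 1.61, Oasl2 0.91, Ifi27l2a 0.20, Ifi47 1.497, Usp18 1.72, Rtp4 2.50, Xaf1 0.65, Zbp1 0.91, Ifi204 0.22, Ifi209 0.34, Trim30a 0.12 and Eif2ak2 0.12 reversed. For HER2 late over wildtype late, the count higher (2) was 4 with equal weights, 5 with median-ratio scaling, and 1 with a 1.5-fold limit or without those cells. The count lower (0) was 1 with a mitochondrial limit of 20% or equal weights. For HER2 late over early, the count higher (0) was 1 with equal weights, median-ratio scaling or no filter. The count lower (2) was 1 with median-ratio scaling, a 1.5-fold limit or without those cells. Members with both HER2 libraries above (4) numbered 2 with free RNA subtracted and 8 without those cells, and those below (9) numbered 5 with a mitochondrial limit of 20% or equal weights and 4 without those cells.

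For IM against AM (edgeR), leaving out each library in turn gave 17 to 19 members higher and 2 to 4 lower, and leaving out the Cst7 and T-gene cells gave 5 lower. The 4 lower came without wildtype early. With no replicate block 17 were higher and 2 lower, and Bst2 was no longer called (log2 1.08). Irf7 (adjusted p = 0.0544) and Ifit2 (adjusted p = 0.0531) were not called with free RNA subtracted.

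The share of AM cells high in the core list was, without thinning, 0.352, 0.204, 0.448 and 0.438%, and with a limit of 3 UMIs 0.313, 0.204, 0.319 and 0.410%. The share of IM cells in wildtype early was 13.3% without thinning, 9.29% with 3 UMIs and 0.633% without the Cst7 and T-gene cells. In the other 3 libraries it was 0.879, 0.790 and 0.908% without thinning, and 0, 0.376 and 0.952% with a limit of 3 UMIs.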
